A study of Mus musculus with 7 samples.

Results

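Transcript levels of 7 genes were followed across 7 arrays of mouse cells: the core pluripotency factors Pou5f1 (Oct4) and Sox2, and 5 genes whose proteins have been described together with Nanog or Pou5f1 protein, namely Sall4, Sall1, Zfp281, Rif1 and Trim28. They were chosen by gene symbol, and all 7 were found among the 22180 genes measured. The series compared Nanog knockout (KO) induced pluripotent stem cells (iPSC) with wild-type (WT) pluripotent cells. The arrays hold 2 KO iPSC samples, 2 WT iPSC samples, 1 sample of WT embryonic stem cells (ESC), 1 of KO mouse embryonic fibroblasts (MEF) and 1 of WT MEF, all of strain 129. iPSC are somatic cells brought to a state like that of ESC by added reprogramming factors, and MEF are cultured embryonic fibroblasts. The iPSC replicates are labelled as biological, without a statement on whether the 2 KO iPSC samples are separate lines, on the factors used, or on how the Nanog allele was made. Media called ESC, 2i/LIF and MEF are named, but not the medium of each sample, so a difference in medium between genotypes cannot be told apart from the genotype.

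Pou5f1, a POU homeodomain protein, and Sox2, an HMG-box protein, bind DNA side by side at a composite element and activate genes of the pluripotent state, their own genes and Nanog among them. Nanog, a homeodomain protein, binds many of the same sites. Sall4 and Sall1 are zinc finger proteins of the spalt family that recruit the NuRD deacetylase complex, Zfp281 is a zinc finger protein that binds G-rich DNA, Rif1 acts in replication timing and in the choice of DNA repair pathway, and Trim28 (KAP1) is the corepressor through which KRAB zinc finger proteins silence transposable elements.

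Values are log2 probe set intensities. Background was set per array at the level that 95% of 1390 odorant and pheromone receptor genes, taken as silent in these cells, do not exceed; it lay between 6.30 and 6.50. Levels are compared between arrays for 1 gene, never between genes, because each probe set has its own brightness. Nanog stood at 7.50 and 7.44 in KO iPSC, against 12.84 and 12.76 in WT iPSC and 12.73 in WT ESC, and at 6.42 in KO MEF and 6.53 in WT MEF. Whether its probe set lies in the part of the gene that the knockout altered is not stated. The 2 KO iPSC arrays differed by over 2-fold in 4 genes and the 2 WT iPSC arrays in 350.

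The fibroblast signal of the WT pluripotent arrays was higher than that of the KO iPSC arrays and has to be kept beside each difference below. Over 19 measured fibroblast markers the median log2 level was 6.72 and 6.91 in KO iPSC, 9.09 and 7.20 in WT iPSC, 7.92 in WT ESC, 11.87 in KO MEF and 11.28 in WT MEF. Of these markers, 13 lay above background in each KO iPSC array, and 17, 13 and 16 in the 2 WT iPSC arrays and WT ESC. Their summed linear intensity was 2477 and 2448 in KO iPSC, 18871 and 6577 in WT iPSC and 9275 in WT ESC. In WT iPSC replicate 2 the brightest marker was Acta2, at 11.91 against 7.99 and 8.08 in KO iPSC. There Col3a1, S100a4, Twist1, Twist2, Snai2, Tbx15 and Fap lay below both KO iPSC values. Of the fibroblast markers 3 were lower in KO iPSC than in WT pluripotent arrays and 0 were higher (limma, adjusted p under 0.05), and 0 were higher at an unadjusted p under 0.05. Over all genes 8.81% were called lower and 6.89% higher. In bulk samples fewer cells of a type and less RNA per cell cannot be told apart.

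**Figure D1:**
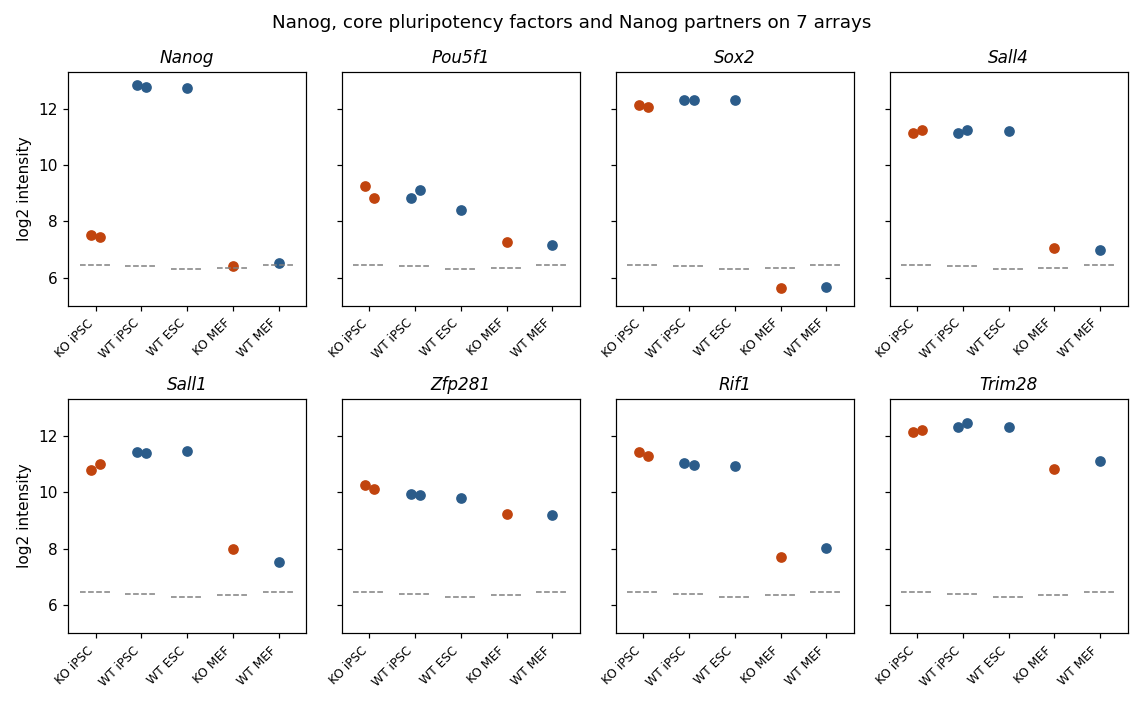
Log2 intensity of Nanog and of the 7 genes (vertical axes) in each array, with the groups along the horizontal axes. Each point is 1 array (orange, Nanog KO; blue, WT) and dashed lines mark the background of each group. Nanog lay at 7.44 to 7.50 in KO iPSC, while Sox2, Sall4, Sall1 and Rif1 stayed far above their MEF levels in all iPSC and ESC arrays.

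The first question was whether the core factors and the partners keep their level in pluripotent cells without Nanog. The 2 KO iPSC arrays were set against 3 WT pluripotent arrays (2 WT iPSC and WT ESC) by limma over all 22180 genes. Of the 7 genes, Sall1 fell and Rif1 rose, and Pou5f1, Sox2, Sall4, Zfp281 and Trim28 did not pass an adjusted p of 0.05. Over all genes 15.7% were called (6.89% higher and 8.81% lower), beside which 1 of 7 in each direction is not read as a result about the group. Higher genes were 43.9% of all calls as deposited and 54.1% after median centring. The groups did not overlap in 5 of the 7 genes, against 51.6% of all genes. The median difference was 0.00 over the 7 genes and 0.034 over all genes. None of the 7 differed by as much as 2-fold.

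Pou5f1 is the factor without which the inner cell mass does not stay pluripotent. Its log2 intensity was 9.27 and 8.82 in KO iPSC, against 8.82 and 9.10 in WT iPSC and 8.40 in WT ESC. KO iPSC and WT iPSC overlapped, and WT ESC gave the lowest of the 5 pluripotent values. The KO minus WT pluripotent difference was 0.27 (SE 0.24, 95% interval -0.32 to 0.86, adjusted p = 0.487, limma), an interval that spans both directions. Of the 7 genes Pou5f1 had the widest gap between replicates, 0.45 within KO iPSC and 0.28 within WT iPSC.

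In MEF the Pou5f1 probe set read 7.27 (KO) and 7.15 (WT), which is above the background mark. iPSC exceeded MEF by 1.77 in KO cells and 1.82 in WT cells. Pou5f1 is known as a gene that fibroblasts do not express. The mouse genome holds processed copies related to Pou5f1, and whether the probe set also reads them was not tested. The copy Pou5f1-rs4, on a probe set of its own, lay at 6.48 and 6.51 in KO iPSC, 6.24 in both WT iPSC arrays, 6.27 in WT ESC, 6.24 in KO MEF and 6.06 in WT MEF, near background throughout. Whether a reprogramming transgene added to the Pou5f1 or Sox2 signal of iPSC was not tested.

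Sox2, the DNA-binding partner of Pou5f1, stood at 12.12 and 12.05 in KO iPSC, against 12.30 and 12.32 in WT iPSC and 12.31 in WT ESC. Both KO arrays lay below all 3 WT arrays, which lay close together. The difference was -0.225 (SE 0.08, 95% interval -0.41 to -0.04), 1.17-fold lower, with an adjusted p of 0.107 in limma. It passed with a trend and robust fitting (adjusted p = 0.0325). MEF gave 5.65 (KO) and 5.68 (WT), below background.

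Promoters were read for the composite element that the pair of factors binds, which among those printed matched in Nanog only. Each line gives 250 bases before the first annotated start in RefSeq (build GRCm38.p6), 5' to 3' on the gene's strand, for Nanog (chr6:122707239-122707488, plus strand), Pou5f1 (chr17:35505782-35506031, plus), Sox2 (chr3:34649745-34649994, plus) and Sall1 (chr8:89044163-89044412, minus), the member that fell. Capitals mark matches, on either strand, to the composite Oct4-Sox2 element (TTTGCATTACAATG, with any base at the eighth position), the octamer ATGCAAAT, the GC box GGGCGGG and the CCAAT box CCAAT.
Nanog: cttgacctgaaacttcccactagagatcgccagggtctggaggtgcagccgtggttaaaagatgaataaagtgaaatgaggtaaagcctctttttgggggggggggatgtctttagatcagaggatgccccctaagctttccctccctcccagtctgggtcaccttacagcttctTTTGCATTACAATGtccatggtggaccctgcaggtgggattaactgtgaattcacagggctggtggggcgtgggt
Pou5f1: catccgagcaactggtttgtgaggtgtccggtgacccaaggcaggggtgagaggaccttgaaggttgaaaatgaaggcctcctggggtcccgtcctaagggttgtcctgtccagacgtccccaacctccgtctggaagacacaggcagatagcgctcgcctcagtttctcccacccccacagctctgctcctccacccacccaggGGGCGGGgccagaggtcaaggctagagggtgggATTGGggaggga
Sox2: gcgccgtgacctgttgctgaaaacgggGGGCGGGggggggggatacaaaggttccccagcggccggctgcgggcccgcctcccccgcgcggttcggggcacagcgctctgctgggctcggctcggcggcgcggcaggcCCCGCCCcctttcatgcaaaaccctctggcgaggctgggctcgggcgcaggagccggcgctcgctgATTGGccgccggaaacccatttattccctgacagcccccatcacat
Sall1: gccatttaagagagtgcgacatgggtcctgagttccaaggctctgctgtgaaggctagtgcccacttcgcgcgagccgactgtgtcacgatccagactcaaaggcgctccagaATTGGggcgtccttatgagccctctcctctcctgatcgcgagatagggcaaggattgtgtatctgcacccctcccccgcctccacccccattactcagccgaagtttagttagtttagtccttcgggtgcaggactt

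In Nanog the composite letters begin at position -75 from its first start and do not overlap another motif. They were chosen with the Nanog promoter in view, and among the 32851 promoter windows of the table they occur in 2, the overlapping windows of 2 Nanog starts. The octamer occurs in 1.60% of the windows, and in none of the 4 printed. A GC box is present in 23.4% of windows, among them those of Pou5f1 (position -45) and Sox2 (positions -223 and -112). A CCAAT box is present in 33.8%, among them Pou5f1 (-12), Sox2 (-46) and Sall1 (-137). A match is only a description of the letters. The table held starts for 5 of the 7 genes, with Zfp281 and Trim28 besides those printed, and none for Sall4 and Rif1.

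Genes described with an Oct4-Sox2 element were compared as a group, although their behaviour in these arrays was known when the list was made. Beside Nanog itself, 3 of the other 4 fell in KO iPSC and 1 rose, against 8.81% and 6.89% of all genes. Since the list was made with these values in view, nothing is read from the count. The growth factor gene Fgf4 read 9.64 and 9.82 in KO iPSC, against 11.96 and 12.04 in WT iPSC and 11.75 in WT ESC (log2 difference -2.18, SE 0.12, adjusted p = 0.000716). The chromatin-bound factor Utf1 read 11.73 in both KO iPSC arrays, against 12.75 to 13.04 in the WT pluripotent arrays (-1.18, SE 0.11, adjusted p = 0.00267), and the Nodal antagonist Lefty1 read 6.88 and 6.65 in KO iPSC, against 9.05 and 8.75 in WT iPSC and 10.18 in WT ESC (-2.56, SE 0.42, adjusted p = 0.0142). The F-box gene Fbxo15 read 11.33 and 11.42 in KO iPSC, against 10.95 and 10.70 in WT iPSC and 10.64 in WT ESC, and rose by 0.61 (SE 0.12, adjusted p = 0.0232). The p-values are limma's.

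Sall4, which is required for the inner cell mass and for ESC proliferation, did not pass the test. It stood at 11.14 and 11.23 in KO iPSC, against 11.13 and 11.24 in WT iPSC and 11.21 in WT ESC. The 5 values span about the gap between replicates, and the groups overlapped. The difference was -0.004 (SE 0.08, 95% interval -0.21 to 0.20, adjusted p = 0.979). A second, dim Sall4 probe set lay below background on all 7 arrays and was not used.

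Sall1, a relative of Sall4 also found with Nanog protein in ESC, had 10.78 and 11.01 in KO iPSC, against 11.42 and 11.40 in WT iPSC and 11.47 in WT ESC. The WT values lay close together, and both KO values were below them. The fall was 1.45-fold (log2 -0.54, SE 0.10, 95% interval -0.77 to -0.30, adjusted p = 0.0193, limma). Against WT iPSC alone it was -0.52 (SE 0.11, adjusted p = 0.0365). This call was lost after median centring (-0.46, adjusted p = 0.0504) and with the replicate number as a block (-0.52, adjusted p = 0.0503). It was also lost without KO iPSC replicate 1 (-0.40) or 2 (-0.63), where 1 KO array is left and most calls over all genes were lost. Against the WT pluripotent arrays the fall was -0.54 without WT iPSC replicate 1, the pluripotent array with the highest fibroblast signal. The summed fibroblast signal of WT iPSC replicate 2 (6577) and WT ESC (9275) still exceeded that of KO iPSC (2477 and 2448). In WT iPSC replicate 2 Acta2 (11.91) was the brightest marker of that sum, and 13 markers lay above background, as in each KO iPSC array. Whether fibroblast signal plays a part in the Sall1 difference was not tested. The call against the WT pluripotent arrays was lost without WT iPSC replicate 2 (-0.55, adjusted p = 0.055). It was also lost without KO iPSC replicate 1 (-0.42) or 2 (-0.65), as were most calls over all genes.

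The family relatives of the members were then read from a list of 14 measured Sall, Sox and POU genes. In limma 2 rose, 1 fell and 11 did not pass, against 6.89% higher and 8.81% lower of all genes. Their median was 0.16, against 0.034 over all genes, and the counts are not read as a result about the families. The spalt gene Sall3, which acts in neural and limb development, stood at 9.02 and 9.18 in KO iPSC, against 6.96 and 7.14 in WT iPSC and 6.66 in WT ESC. It rose 4.52-fold (log2 2.18, SE 0.15, adjusted p = 0.00141), the change of largest size among the 4 spalt genes. Sall2 read 6.83 and 6.88 in KO iPSC, against 7.09 and 6.90 in WT iPSC and 7.06 in WT ESC (-0.16, SE 0.09, adjusted p = 0.285). In KO iPSC, then, Sall1 was lower, Sall3 higher, and Sall2 and Sall4 did not pass.

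Among the Sox genes, Sox21, a SoxB repressor that Sox2 is known to activate, rose to 9.16 and 9.40 in KO iPSC, against 8.31 and 8.37 in WT iPSC and 8.14 in WT ESC (1.01, SE 0.11, adjusted p = 0.00506). Against WT iPSC alone the Sox21 rise was 0.94, and 0.58 when its probe sets were averaged (adjusted p = 0.0122, limma). Sox15, a factor that binds sites like those of Sox2 in ESC, fell to 8.27 and 8.14 in KO iPSC, against 9.30 and 9.84 in WT iPSC and 9.77 in WT ESC (-1.43, SE 0.18, adjusted p = 0.00645). Neither group overlapped. The neural factor Sox3 read 7.67 and 7.60 in KO iPSC, against 7.60 and 7.70 in WT iPSC and 7.76 in WT ESC, and did not pass (-0.05, SE 0.09). The calls for Sox21 and Sox15 were lost without either KO array, where 1 KO array is left and most calls over all genes were lost. With 1 array left out the difference ran from 0.89 to 1.13 for Sox21 and from -1.60 to -1.33 for Sox15.

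**Figure D2:**
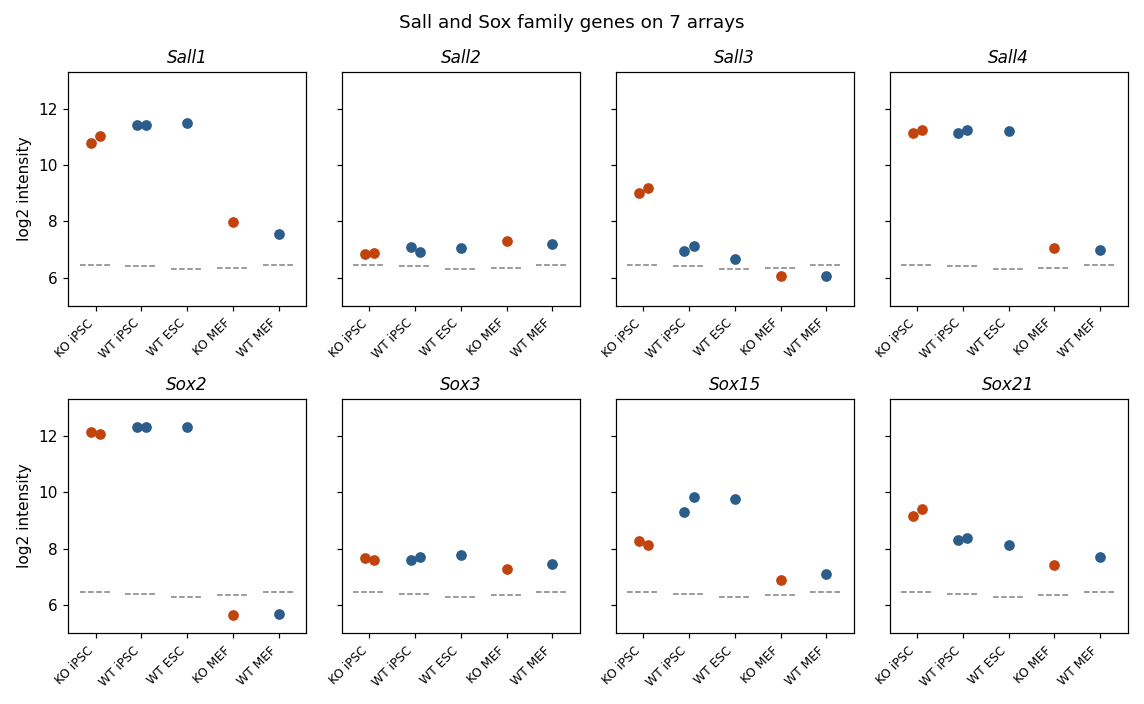
Log2 intensity of 4 spalt genes (top row) and 4 Sox genes (bottom row) on the vertical axes, by group along the horizontal axes, with 1 point per array (orange, Nanog KO; blue, WT) and dashed lines at background. Sall3 and Sox21 lay higher in KO iPSC than in every WT pluripotent array, and Sall1 and Sox15 lay lower.

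Zfp281 stood at 10.25 and 10.11 in KO iPSC, against 9.93 and 9.91 in WT iPSC and 9.80 in WT ESC. Both KO arrays were above the 3 WT arrays. The difference was 0.30 (SE 0.09, 95% interval 0.08 to 0.52), 1.23-fold, with an adjusted p of 0.0808, and it did not pass under any of the 11 alternative settings (adjusted p from 0.0524 to 0.398). Zfp281 protein has been described as a recruiter of NuRD to the Nanog locus.

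Rif1 stood at 11.44 and 11.28 in KO iPSC, against 11.02 and 10.98 in WT iPSC and 10.93 in WT ESC. The WT arrays lay close together and below both KO arrays. The rise was 1.31-fold (log2 0.39, SE 0.09, 95% interval 0.17 to 0.60, adjusted p = 0.0374), and 0.36 against WT iPSC alone (SE 0.10, adjusted p = 0.0658), where it did not pass. The value was 0.40 without WT iPSC replicate 1. Rif1 lost its call in limma without WT iPSC replicate 2 (0.39, adjusted p = 0.093) or WT ESC (0.36, adjusted p = 0.0658). The call was also lost without KO iPSC replicate 1 (0.31) or 2 (0.46), where 1 KO array is left and most calls over all genes were lost.

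Of 13 measured genes whose proteins act with Rif1 in repair and replication timing, 4 fell and 0 rose in limma (0 rose at an unadjusted p under 0.05), against 8.81% lower and 6.89% higher of all genes. Their median was -0.20, against 0.034 over all genes. Against WT iPSC alone 2 of the 13 fell, Shld2 and Blm. The shieldin subunit Shld2 read 6.36 and 6.33 in KO iPSC, below background, against 7.28 to 7.67 in WT pluripotent arrays, a fall of at least 1.97-fold (adjusted p = 0.0057). The helicase gene Blm read 10.10 and 10.05 in KO iPSC, against 10.65 to 10.75 (-0.62, SE 0.08, adjusted p = 0.00725). Mad2l2 (-0.46) and the phosphatase subunit Ppp1cc (-0.34), a binding partner of Rif1, also fell. These calls were lost in 6 (Mad2l2) and 7 (Ppp1cc) of 11 alternative settings, and neither passed against WT iPSC alone (adjusted p = 0.0767 and 0.0609). The repair factor Trp53bp1, which brings Rif1 to breaks, did not pass (0.08, SE 0.12).

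Trim28 stood at 12.15 and 12.20 in KO iPSC, against 12.32 and 12.44 in WT iPSC and 12.30 in WT ESC. Both KO values were lower than all WT values. The difference was -0.18 (SE 0.08, 95% interval -0.39 to 0.03, adjusted p = 0.212). Of 18 measured genes that act with Trim28 in silencing, 3 fell and 0 rose in limma (2 rose at an unadjusted p under 0.05), against 8.81% lower and 6.89% higher of all genes, and the median was 0.03. The heterochromatin proteins Cbx3 (-0.45, SE 0.09, adjusted p = 0.0223) and Cbx1 (-0.51, SE 0.12, adjusted p = 0.0449) and the H3K9 methyltransferase Ehmt2 (-0.39, SE 0.09, adjusted p = 0.044) were the 3 that fell. The calls were lost in 3 (Cbx3), 6 (Cbx1) and 6 (Ehmt2) of 11 alternative settings. Against WT iPSC alone Cbx3 fell (adjusted p = 0.0399), and Cbx1 (adjusted p = 0.0745) and Ehmt2 (adjusted p = 0.0734) did not pass. Setdb1, the methyltransferase that Trim28 recruits, did not pass (0.16, SE 0.08).

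A wider list of 32 measured genes whose proteins have been described with Nanog or Pou5f1 gave 3 falls and 0 rises in limma (4 rises at an unadjusted p under 0.05), against 8.81% lower and 6.89% higher of all genes, with a median of -0.06. The cytosine dioxygenase Tet2 read 10.35 and 10.46 in KO iPSC, against 11.67 to 11.69 in the WT pluripotent arrays (-1.28, SE 0.08, adjusted p = 0.00102). Its relative Tet1 (-0.35, SE 0.08, adjusted p = 0.0396) and the NuRD subunit Mta1 (-0.51, SE 0.13, adjusted p = 0.0487) also fell. The Tet1 call was lost in 5 and the Mta1 call in 7 of 11 alternative settings. Nacc1 (-0.03), Hdac2 (-0.08) and the orphan receptor Nr0b1 (0.14) did not pass, and neither did the orphan receptor Esrrb (-1.09, SE 0.36, adjusted p = 0.10). Against WT iPSC alone Tet2 and Esrrb fell (Esrrb -1.43, SE 0.21, adjusted p = 0.0146), the transcription factor gene Tfcp2l1 rose (0.50, SE 0.09, adjusted p = 0.027), and Tet1 (adjusted p = 0.0684) and Mta1 (adjusted p = 0.0642) did not pass.

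**Figure D3:**
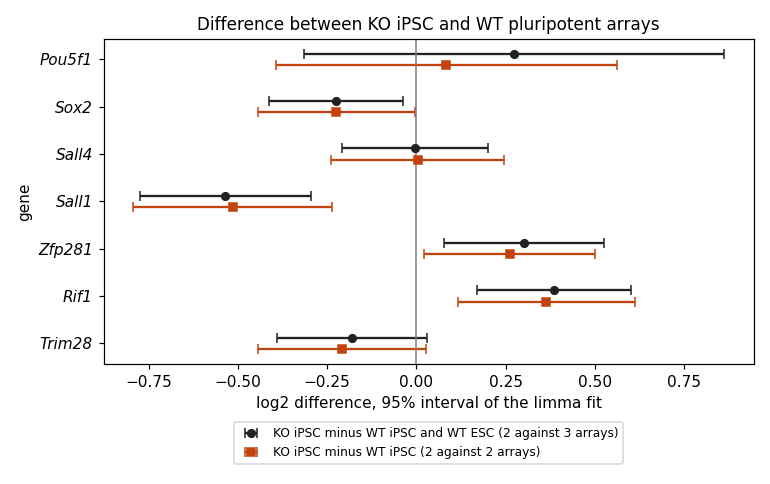
Log2 difference (horizontal axis) of the 7 genes (vertical axis) between KO iPSC and WT pluripotent arrays (black circles) or WT iPSC alone (orange squares), with 95% intervals of the limma fits. Sall1 lay at -0.54 and -0.52, Rif1 at 0.39 and 0.36, and Sall4 within 0.01 of 0.

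Within iPSC the arrays share the cell type label but not the level of fibroblast signal. Sall1 fell and 0 of the 7 genes rose in limma (2 at an unadjusted p under 0.05), against 16.5% of all genes called (6.93% higher and 9.55% lower). Most differences were close to those against all WT pluripotent arrays, with which this comparison shares its KO arrays and 2 WT arrays. Pou5f1 differed most between the comparisons, with 0.08 (SE 0.19, adjusted p = 0.803) here and 0.27 there. Sox2 was at -0.22, Zfp281 at 0.26 and Trim28 at -0.21, and none of these 3 passed.

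WT ESC were compared with WT iPSC to see how far WT pluripotent cells differ for these genes, with 1 ESC array, which borrows its spread from the iPSC pairs. In limma 0 of the 7 genes passed, and 0 had an unadjusted p under 0.05, against 0.162% of all genes called (0.0812% in each direction). The largest difference was in Pou5f1, 1.48-fold lower in WT ESC (-0.57, SE 0.23, 95% interval -1.15 to 0.02, adjusted p = 0.424). The other 6 lay between -0.12 (Zfp281) and 0.06 (Sall1), with SE of 0.11 to 0.13. That Sall1, Rif1 and Zfp281 were each within 0.12 between WT ESC and WT iPSC is a comparison on the same WT arrays as above.

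The second question was how the genes differ between iPSC and fibroblasts of each genotype, with 2 iPSC arrays against 1 MEF array. All 7 rose in both genotypes, against 18.1% of all genes called higher in KO and 17.2% in WT cells (35.9% and 32.6% called in either direction). The median difference was 2.92 in KO cells and 2.97 in WT cells, against 0.070 and 0.000 over all genes. Spread within MEF was not measured, and is taken from the iPSC pairs. These genes are known for their place in pluripotent cells, so the direction is not evidence of its own.

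Sox2 was at least 53.2-fold higher in KO iPSC than KO MEF and at least 57.9-fold higher in WT iPSC than WT MEF, where the MEF value is below background. Sall4 was higher by 4.13 in KO cells (7.06 in KO MEF) and 4.2 in WT cells (6.98 in WT MEF), each with SE 0.12. Sall1 was higher by 2.92 in KO cells and 3.86 in WT cells (SE 0.13 each), and Rif1 by 3.65 in KO cells and 2.97 in WT cells (SE 0.12 each). Smaller differences were seen in Trim28 with 1.36 and 1.27 (10.81 in KO MEF, 11.12 in WT MEF) and Zfp281 with 0.97 and 0.73 (9.21 in KO MEF, 9.19 in WT MEF), in KO and WT cells in that order. Over the 7 genes in both genotypes the adjusted p ran up to 0.00814 (limma).

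Among the listed partners, against 18.1% of all genes higher in KO cells and 17.2% in WT cells, more genes rose than fell. Of the 32 genes described with Nanog or Pou5f1, 20 rose in KO cells and 19 in WT cells, of the 18 Trim28 partners 15 in each, and of the 13 Rif1 partners 7 and 9. Of these lists 1 gene fell, the Trim28 partner Ehmt2 in KO cells (-0.55, adjusted p = 0.0194). Of the 14 family relatives 4 rose in each genotype, and 3 fell in KO cells, Pou3f3 (-1.18), Pou6f1 (-0.69) and Sall2 (-0.45). Among the Trim28 partners the hemimethylated DNA reader Uhrf1 rose by 2.89 in KO cells and 1.70 in WT cells. Among the Rif1 partners the repair gene Brca1 rose by 3.34 and 2.51, and Blm by 2.48 and 2.33. Sall3 was below background in both MEF arrays (6.07 and 6.08) and was at least 6.71-fold higher in KO iPSC and at least 1.51-fold higher in WT iPSC.

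**Figure D4:**
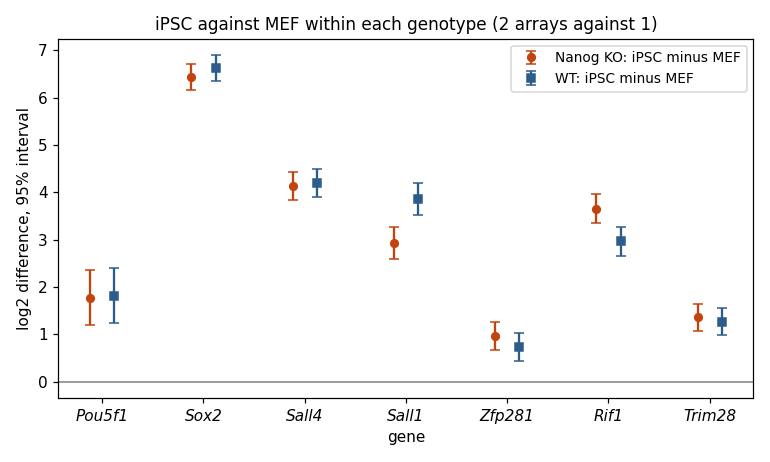
Log2 difference (vertical axis) between iPSC and MEF for the 7 genes (horizontal axis), in Nanog KO cells (orange circles) and WT cells (blue squares), with 95% intervals of the limma fit (2 iPSC arrays against 1 MEF array). Intervals of the genotypes overlap for 5 genes and are apart for Sall1 and Rif1.

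The interaction of genotype and cell type tests whether the iPSC minus MEF difference itself depends on genotype, and 8.55% of all genes passed it (3.07% higher and 5.48% lower). In limma Sall1 passed with -0.94 (SE 0.19, adjusted p = 0.048), and Rif1 did not (0.69, SE 0.17, adjusted p = 0.075). With a trend and robust fit Rif1 passed too (adjusted p = 0.0438, limma). After median centring it was 0.76 (adjusted p = 0.0603). The Rif1 value was 0.70 without WT iPSC replicate 1 and 0.67 without replicate 2. The MEF pair contributes to the values of both genes. Sall1 read 7.97 in KO MEF and 7.54 in WT MEF (difference 0.42), opposite in sign to iPSC, and Rif1 read 7.71 in KO MEF and 8.03 in WT MEF (-0.32). These are differences of 2 single arrays with no test, and 19.4% and 27.3% of all genes differed by more. Of all genes 4.56% differed by at least 2-fold in this pair, and 0 of the 7. The Sall1 interaction was lost after median centring (-0.86, adjusted p = 0.0607) and after quantile normalization (-0.87, adjusted p = 0.0631). It was also lost without KO iPSC replicate 1 (-0.83) or 2 (-1.05), where 1 KO array is left and most calls over all genes were lost.

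The other 5 genes had interaction values from -0.19 (Sox2) to 0.23 (Zfp281), with adjusted p of 0.441 or more. Sox21 passed in limma with 1.25 (SE 0.19, adjusted p = 0.0272), and with 0.72 when its probe sets were averaged (adjusted p = 0.0465). The Sox21 call was lost without KO iPSC replicate 1 (1.36) or 2 (1.13), as were most calls over all genes. Sall3 lay below background in both MEF arrays, so its effect of genotype in MEF was not measured and its interaction value is not read beside the iPSC difference. Sox15 did not pass (-1.16, SE 0.33, adjusted p = 0.108).

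Across the 7 arrays the 7 genes followed each other closely, with Pearson correlations from 0.87 (Sall1 and Zfp281) to about 1 (Sox2 and Sall4). The arrays fall into a pluripotent cluster and a fibroblast cluster, so these values describe mainly that split and carry no p. In the lowest pair Sall1 was lower in KO iPSC and Zfp281 lay higher there. Sall1 and Rif1, which rose in KO iPSC, correlated at 0.96. Why the lowest pair was lowest was not tested. For each gene the 3 others most like it over the 7 arrays were taken from 7102 genes with a range of at least 1 on the log2 scale, and between 220 (Pou5f1) and 752 (Trim28) of those had a correlation over 0.95.

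Sox2 was followed most closely by the zinc finger gene Zscan10 (0.9991), the Nodal co-receptor gene Tdgf1 (0.9990) and Smtnl2 (0.9989). Sall4 was followed by the pluripotency gene Dppa4 (0.9993), 2410003L11Rik (0.9991) and Amt (0.9990), which encodes an enzyme of the glycine cleavage system. For Sall1 they were Rybp (0.9983), a Polycomb subunit, Nufip1 (0.9976) and Hsf2bp (0.9974). For Rif1 they were Ceacam1 (0.9984), Triml2 (0.9981) and Rfx2 (0.9976). Pou5f1 had Gpx6 (0.9966), Gpr4 (0.9892) and Slco4c1 (0.9888), Zfp281 had Rbm26 (0.9980), Jade1 (0.9960) and Tada3 (0.9941), and Trim28 had the splicing gene Prpf4 (0.9986), the mitochondrial ribosome gene Mrps5 (0.9980) and Casp8ap2 (0.9978).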

How the data were processed

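The authors deposited a linear intensity for each probe set, from 9.67 to 13043. Per the submitters' processing notes, RMA was run in Affymetrix Expression Console 1.3.0.187. The design had assumed log2 values, so log2 was taken here, with no further normalization. Of 33649 probe sets, 23521 carry 1 symbol in the platform annotation, and 23328 of these matched RefSeq (GRCm38.p6) by Entrez identifier. The brightest probe set by mean over the 7 arrays stood for each of 22180 genes. No column was left unmapped (0).

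Differences were fitted with limma 3.58.1 in R 4.3.3 (lmFit, eBayes, two-sided) and adjusted by Benjamini-Hochberg over all genes. KO iPSC against WT pluripotent used 5 arrays; the other comparisons used all 7 arrays with 1 coefficient per group, in which groups with 1 array borrow the spread of the iPSC pairs. Fits were tested on simulated data. Where one side lay below background on every array, the fold is a bound against the mean background of those arrays. P-values measure spread between the replicate iPSC arrays, and in the fit of 5 arrays also between WT iPSC and WT ESC. They do not measure spread between MEF samples or between ESC samples, and the number of arrays limits precision.

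The 7 genes and all lists were chosen with earlier results of these data known. Named genes were the 7 members, Nanog, family relatives, up to 4 called genes per list and direction, and the 3 most correlated genes of each member. Genes named beside these that did not pass were chosen after their values were seen. Alternatives were other scaling, a trend and robust fit, leaving out the dimmest genes, averaging probe sets, leaving out each replicate, other sets of arrays and a replicate block.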

Additional observations from a re-analysis of the deposited data

Results flagged for a closer look

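The interaction of genotype and cell type passed an adjusted p of 0.05 in limma for 26 of the members and listed genes. Over all genes 8.55% passed. The lists share genes and were chosen with earlier results of these data known, so nothing is read from the count. Each value rests on 1 KO MEF and 1 WT MEF array, whose own spread was not measured, and leaving out a KO iPSC array gave 19 to 40 genes higher and 70 to 118 lower among all genes.

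In 17 of the 26 both MEF arrays lay above background. On the log2 scale these were Sall1 (-0.94), which is a member, Nanog (-5.22), Sox21 (1.25), Tet1 (-0.79), Tet2 (-1.93), the glycosyltransferase gene Ogt (-0.79), Fgf4 (-2.5), Uhrf1 (1.19) and the replication kinase subunit Dbf4 (1.25). The marker genes among them were Dcn (-5.12), Acta2 (-4.25), Fap (-1.86), Dab2 (-1.41), Pdgfra (-3.17), Tead4 (1.36), Nes (2.22) and Fgf5 (-0.89).

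In 2 genes, Lefty1 (-2.53) and Lum (-5.54, below background on every iPSC array), 1 MEF array lay above background. In 7 genes neither did, so no effect of genotype in MEF was measured and the value is not a difference between cell types: Sall3 (2.06), Utf1 (-1.05), Shld2 (-1.39), Sox7 (-1.02), Tfap2c (-1.7), Olig2 (-3.78) and Otx2 (-2.4).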

How the results depend on the processing

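Of 406 values of the 7 genes under alternative settings, 367 kept direction and side of the threshold, 15 no longer passed, 6 newly passed and 18 changed sign, all of them values of Pou5f1, Sox2 or Sall4 that do not pass the test. Of 1653 values of other named genes, 1436 kept both and 217 no longer passed. The cause of a changed value was not tested.

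For KO iPSC against WT pluripotent, 1529 genes were higher and 1954 lower. Leaving out 1 array gave 157 to 1729 higher and 184 to 2438 lower, with 0 to 1 of the 7 genes in each direction. Higher genes were 43.9% of calls as deposited and 54.1% after median centring. A trend and robust fit called 2 members lower. Sall4 turned to 0.047 (median centring), 0.017 (quantile) and, with 1 array left out, to between 0.003 and 0.042 (lowest of all such fits -0.051).

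Within iPSC, 1538 genes were higher and 2118 lower, 212 to 2504 and 307 to 3475 with 1 array left out, with 0 to 1 member lower. The excess of lower calls was not kept when arrays were centred on their medians (1859 higher, 1795 lower) or quantile-normalized (1864 higher, 1854 lower). Median centring gave 1 member higher (Rif1) and 0 lower, and a trend and robust fit 1 higher. The numbers of the iPSC replicates are not stated to pair them, and the deviations of same-numbered arrays had a correlation of 0.0166. With the replicate block 1331 genes were higher, 1948 lower, and 0 members lower (Sall1 -0.52, adjusted p = 0.0503). Pou5f1 turned to -0.143 and -0.056 without KO iPSC replicate 1 or WT iPSC replicate 1 (highest 0.311), and Sall4 to -0.0435 and -0.054 without KO iPSC replicate 2 or WT iPSC replicate 1 (highest 0.060) and -0.319 with its probe sets averaged.

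For WT ESC against WT iPSC, 18 genes were higher and 18 lower, 37 and 58 with a trend and robust fit, 9 higher without the dimmest genes, and 0 to 1095 and 1 to 1194 with 1 array left out (1641 with an unadjusted p under 0.05 where limma called 0 higher). Sox2 turned to -0.020 (quantile) and -0.013, and Sall4 to -0.311 (averaged) and -0.034, the second value of each without WT iPSC replicate 1 (highest 0.017 and 0.080).

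For KO iPSC against KO MEF, 4004 were higher and 3963 lower, 2199 to 5540 and 2546 to 4864 with 1 array left out, and all 7 members passed in each setting, as in WT cells. For the interaction, 682 were higher and 1215 lower, 19 to 2084 and 70 to 2932 with 1 array left out, with 0 to 1 member in each direction. Median centring and quantile normalization left 0 members lower, and a trend and robust fit called 1 higher (Rif1). The Pou5f1 interaction turned to 0.035, 0.063, 0.186 and 0.099 under median centring, quantile normalization and without KO iPSC replicate 2 or WT iPSC replicate 2 (lowest -0.268).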

Other observations

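Markers of the other cell types that pluripotent cells can form were read on the same arrays, by limma against the 3 WT pluripotent arrays. Over all genes 6.89% were called higher and 8.81% lower, beside which the small counts below are not read as results about a cell type. Of 11 primitive endoderm markers 1 rose and 1 fell. Gata6, a regulator of primitive endoderm, read 8.0 and 8.02 in KO iPSC, against 6.92 and 6.61 in WT iPSC and 7.03 in WT ESC (1.15, SE 0.14, adjusted p = 0.0059), and the endocytic adaptor Dab2 fell by 1.02 on the log2 scale (adjusted p = 0.0137). Gata4 (0.13) and Sox17 (0.29) did not pass. Gata6 was higher still in MEF, with 9.32 (KO) and 9.16 (WT).

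Of 12 trophectoderm markers 1 fell, Tfap2c (-1.53, SE 0.11, adjusted p = 0.00146), and 0 rose (2 at an unadjusted p under 0.05). Cdx2 (-0.05) and Eomes (0.34), regulators of trophoblast that Pou5f1 is known to oppose, did not pass. Against WT iPSC alone 2 trophectoderm markers rose in limma, Eomes (0.45, adjusted p = 0.0316) and Tead4 (0.79, adjusted p = 0.00787). The 2 that fell there were Tfap2c (-1.62, adjusted p = 0.00131) and Hand1 (-0.47, adjusted p = 0.0462). Of all genes 6.93% rose and 9.55% fell in that comparison. Against the 3 WT pluripotent arrays 8.81% of all genes fell and 6.89% rose. Beside this, of 9 neural progenitor markers 2 fell and 0 rose (1 at an unadjusted p under 0.05). Of 7 primed epiblast markers 2 fell and 0 rose (1 at an unadjusted p under 0.05). Of 12 pluripotent cell markers 4 fell and 0 rose (0 at an unadjusted p under 0.05). The 3 fibroblast markers that fell were Acta2 (-4.14), Col1a1 (-2.44) and Lox (at least 11.4-fold).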
